A study of Caenorhabditis elegans with 4 samples.

Results

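Binding regions of NHR-12 that ranked high in both replicates of a chromatin immunoprecipitation sequencing (ChIP-seq) experiment, but that the authors' combined list left out, are described here. Members were selected on measured values, namely their ranks and overlaps. A member is a nuclear region within the strongest 10% of the ChIP replicate 1 list, ranked by the authors' score. It overlaps by 1 bp or more a region within the strongest 10% of the ChIP replicate 2 list (rank 1 to 3000), and overlaps no combined region. Regions within these rank limits are called strong. The rule found 315 members among 25045 regions of replicate 1, and merging members that overlap each other left 285 separate loci. The other 2 lists held 30000 regions (replicate 2) and 197 regions (combined).

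The labels list 2 anti-GFP ChIP samples and 2 input samples from hermaphrodites of the nematode Caenorhabditis elegans, raised at 20 °C and taken as L2 larvae. Both groups came from strain OP318, which carries the integrated transgene wgIs318, a fusion of nhr-12 with TY1, EGFP and FLAG tags, in an unc-119(ed3) background with unc-119(+) as the rescue marker. The labels list no change at the endogenous nhr-12 gene, so untagged NHR-12 may have been present beside the fusion. Chromatin came from whole animals, so the regions pool all tissues that express the fusion. Region lists of the input samples were not analysed here, and no strain without the fusion is among the samples. Whether the replicates were separate cultures is not stated in the labels, so differences between them may be technical.

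Nuclear hormone receptors are transcription factors that contact DNA through a zinc finger domain, and many of them change their activity when a small lipophilic ligand binds. The family is greatly expanded in C. elegans, where its members act in metabolism, moulting and development. A ChIP-seq peak caller ranks places where fragments pile up, and the irreproducible discovery rate (IDR) procedure named in the lists compares such ranks between replicates. In C. elegans the central part of each autosome is rich in conserved, widely expressed genes, while the arms are rich in repeats and recombine more often. Positions are on WormBase build WS220, and the loci are named by position because the gene table used here is of another build. For the same reason no DNA sequence of these regions is shown.

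Among the nuclear regions of replicate 1, 315 of the 2486 within the rank limit (12.7%) met a strong replicate 2 region outside the combined list, against 5.87% of those below the limit and 6.54% of all 25023. These shares follow from the rule and are given as description only. Of the other nuclear regions within the limit, 188 overlapped the combined list, 973 met only weaker regions of replicate 2 and 1010 met neither list. Seen from replicate 2, 305 strong regions met the 315 members and formed 287 loci. Of the members, 293 met 1 strong replicate 2 region and 22 met 2. Conversely, 32 of the 305 replicate 2 regions were met by 2 or more members. None of these 305 regions overlapped the combined list, so no member's counterpart had entered it by way of replicate 2.

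The members were spread over the whole range that the limits allow. Their ranks in replicate 1 had a median of 1098 and ran from 76 to 2492, and the best counterpart in replicate 2 had a median rank of 1282 and ran from 84 to 2981. The authors' score, whose scale the files do not state, had a median of 1.35 over members in replicate 1 (0.721 to 2.86) and of 0.359 over their counterparts in replicate 2 (0.213 to 1.71). The highest score of replicate 1, 2.86, was shared by 344 nuclear regions, of which 46 were members, so the order among these rests on the number in the region name. No member met a region with the highest score of replicate 2, 2.17. As a share of list length, 152 members ranked better in replicate 1 and 163 in replicate 2. Across the 315 members the ranks in both lists had a Spearman rho of 0.10, a description that the rank limits constrain and that includes neighbours sharing 1 counterpart.

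Members and combined regions overlapped in rank but were centred on different values. The better of the 2 ranks had a median of 672 over members and of 86 over the 187 combined regions with counterparts in both lists. It lay within 300 for 68 of 315 members and for 180 of 187 combined regions, and the poorest value was 2468 among members and 585 among combined regions. The bound of 300 falls among the regions tied at the highest replicate 1 score, so which regions lie within it rests partly on the region name. For 139 members the better rank lay within 585, and for 176 it lay beyond. The weaker of the 2 ranks had a median of 1826 over members and 389 over combined regions. Even so, 32 of the 187 combined regions lay outside the limits that all members meet, 25 of them in replicate 1 and 7 in replicate 2. As the ranks chose the members, these values carry no test.

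**Figure D1:**
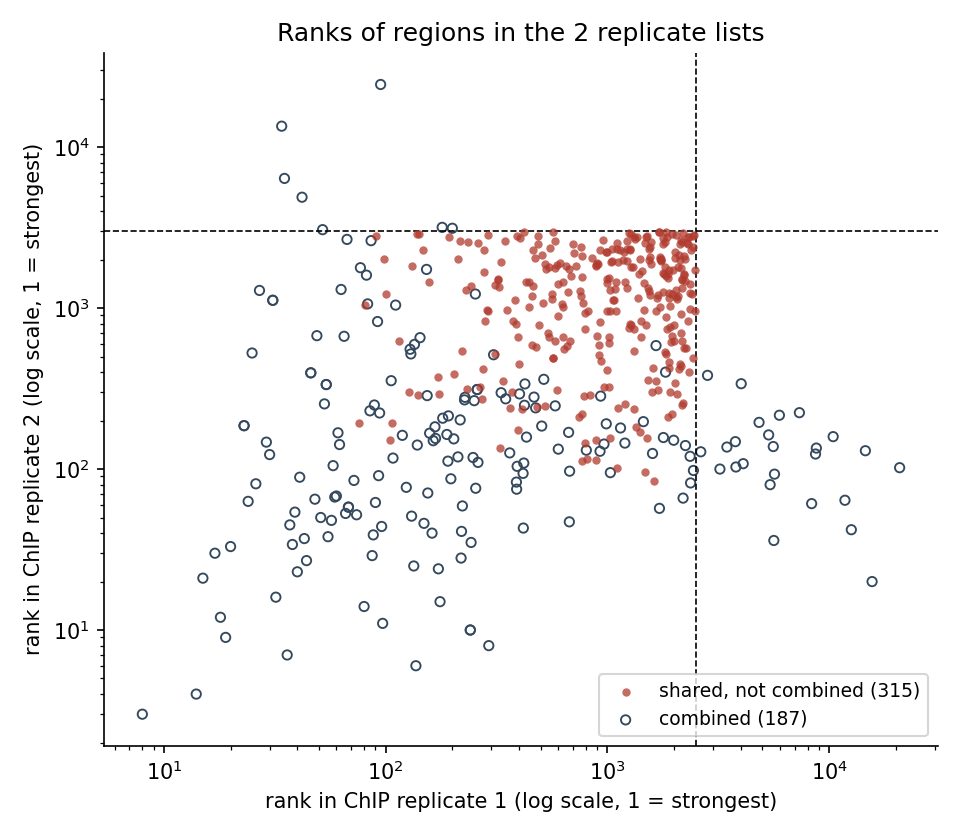
Each point is a region placed by rank in ChIP replicate 1 (x axis) and ChIP replicate 2 (y axis), both on log scales with 1 as the strongest. Members take their own rank in replicate 1 and that of their strongest counterpart in replicate 2. Combined regions take the rank of their strongest counterpart in each list. The 315 members (filled) lie inside the dashed rank limits, which mark the strongest 10% of each list. Of the 187 combined regions (open), 155 also lie inside both limits, and each has a rank of 585 or better in at least 1 list.

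The limits cut through a continuous range of values. The 5 members nearest inside the replicate 1 limit had ranks of 2434 to 2492 and scores of 0.737 to 0.721. The 5 nearest regions outside it that otherwise met the rule had ranks of 2511 to 2544 and scores of 0.719 to 0.709, and 2 of those, on I from 7056694 and from 13417186, met replicate 2 ranks of 243 and 304. At the replicate 2 limit the 5 members nearest inside met ranks of 2962 to 2981, with scores of 0.214 to 0.213. The 5 nearest outside met ranks of 3037 to 3086, with scores of 0.211 to 0.207. One of these, on V from 19529103 to 19529702, ranked 543 in replicate 1.

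By mean rank the strongest members stood above many combined regions, but no member was better than the combined median in both lists. Those medians were 176 in replicate 1 and 130 in replicate 2. By the mean of both ranks, the first locus lay on chromosome I from 9381023 to 9381926. Its rank was 105 in replicate 1, and 152 in replicate 2. It consisted of 2 overlapping replicate 1 entries that met the same replicate 2 region, and its nearest combined locus was 40099 bp away. The second lay on IV from 14033270 to 14034120, again with 2 entries, and ranked 76 and 194. These 2 loci supplied the only 3 members that lay within the top 197 of both lists, 197 being the length of the combined list. That cut falls among the 344 nuclear regions tied at the highest replicate 1 score, whose order rests on the region name. The member on II from 11756786 has the same score and met replicate 2 rank 136, but its replicate 1 rank was 327. The order of the strongest loci given here and below rests partly on such ties. Of 187 combined regions, 131 had a poorer mean rank than the first locus (128.5), and 64 had a poorer one than locus 25 in this order (462.5). The rank limits bound the members but not the combined regions, so these counts are description only.

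The third locus lay on III from 9765232 to 9765831, with ranks of 140 in replicate 1 and 290 in replicate 2. The fourth lay on I from 5377733 to 5378549, with ranks of 128 and 303. It ended 1002 bp before a combined region that started at 5379552. The fifth, on II from 11756786 to 11757011, ranked 327 and 136. With 226 bp it was the narrowest member and the only 1 not 600 bp wide, since the caller gave nearly all replicate 1 regions a fixed width. The sixth lay on III from 4649235 to 4650113, with ranks of 174 and 291. On X from 8019573 to 8020172 the seventh ranked 271 and 272. It is tied at the highest replicate 1 score, so its place among the tied regions, and the evenness of its ranks, rests on the region name. The eighth lay near the left end of V, from 727741 to 728340, with ranks of 172 and 373. Another member lay 536 bp beside it, the shortest gap between member loci.

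The next 4 loci lay on chromosome II. They started at 9060102 (ranks 234 in replicate 1 and 313 in replicate 2), at 6347604 (395 and 174), at 14059602 (266 and 325) and at 9603327 (204 and 388). Chromosome II thus held 5 of the first 12 loci, against 37 of all 285 member loci (13.0%). That count carries no test, and ties in replicate 1 score partly set the order of these loci. They were followed by a locus on I starting at 9163413 (365 and 238) and one on V starting at 4823588 (414 and 237). On IV, loci started at 5656683 (339 and 351), 11027474 (115 and 622), 7099718 (401 and 451) and 1624049 (770 and 113). On III they started at 9053334 (276 and 421) and 1619250 (809 and 116), and the first of these lay 1754 bp from a combined region. On X they started at 8835741 (480 and 244), 1961237 (521 and 245) and 17181050 (311 and 522). Those on I started at 1691255 (221 and 542) and 5706621 (596 and 309). Among these 25 loci the ranks could differ widely between replicates, most of all on III at 1619250 and on IV at 1624049.

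The next comparison asked whether the replicates placed their regions at the same point, a measure that the rule did not use beyond the overlap of 1 bp. Midpoints of members and of their nearest strong counterpart lay a median of 151 bp apart (quartiles 54 and 289 bp), against 184 bp (75 and 340 bp) for the 10456 other nuclear replicate 1 regions that overlapped any replicate 2 region and no combined one. They lay within 100 bp for 128 of 315 members (40.6%, 95% exact binomial interval 35.2 to 46.3) and for 3428 of the 10456 others, a background of 32.8% (31.9 to 33.7). The difference of 7.85 percentage points passed Fisher's exact test (two-sided p = 0.00421). Overlapping entries count separately here and in the class comparisons below, so not all units are independent. With 1 region per locus, chosen after the data were seen, the shares were 41.8% and 32.8% (Fisher's exact test, p = 0.00206). The call was lost when both rank limits were set at the strictest 5%, where 38.7% of 106 members were close against 33.1% of the others (Fisher's exact test, p = 0.254). Regions are not biological replicates, and with read depth unknown these intervals and p-values cover counting error over regions only.

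Since members were paired with strong counterparts only, the comparison was repeated with the strongest counterpart used for every region. It gave 38.4% for members and 26.9% for the other shared regions. Comparisons with 4 separate classes were added after the data were seen. Members were close in 121 of 315 cases, against 312 of 973 (32.1%) for strong replicate 1 regions with only weaker counterparts, a difference of 6.35 percentage points (Fisher's exact test, adjusted p = 0.0398 over 4 comparisons). Members also exceeded weaker regions with a strong counterpart by 8.76 points (392 of 1322, or 29.7%, adjusted p = 0.00392 by the same exact test). They exceeded weaker regions with only weaker counterparts by 12.6 points (2104 of 8161, or 25.8%, exact test, adjusted p = 6.47e-06). Members were close less often than the replicate 1 regions that overlapped the combined list, with 38.4% against 55.7% (146 of 262), a difference of -17.3 points (exact test, adjusted p = 7.75e-05). The members thus lay between the shared regions outside the rank limits and the combined regions, whose list was built from both replicates and so is no independent group.

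Among the members the distance varied without a trend in rank. In 4 groups of 78 or 79 members by the weaker of both ranks, strongest group first, 35.4%, 46.8%, 32.1% and 48.1% had midpoints within 100 bp of the nearest strong counterpart. By chromosome the share ran from 33.3% on III (13 of 39) to 45.5% on V (20 of 44), and the intervals of all 6 chromosomes overlapped. The replicate 2 midpoint lay to the right of the member's in 149 cases and to the left in 165, with a median signed distance of -8 bp. Neither direction dominated.

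**Figure D2:**
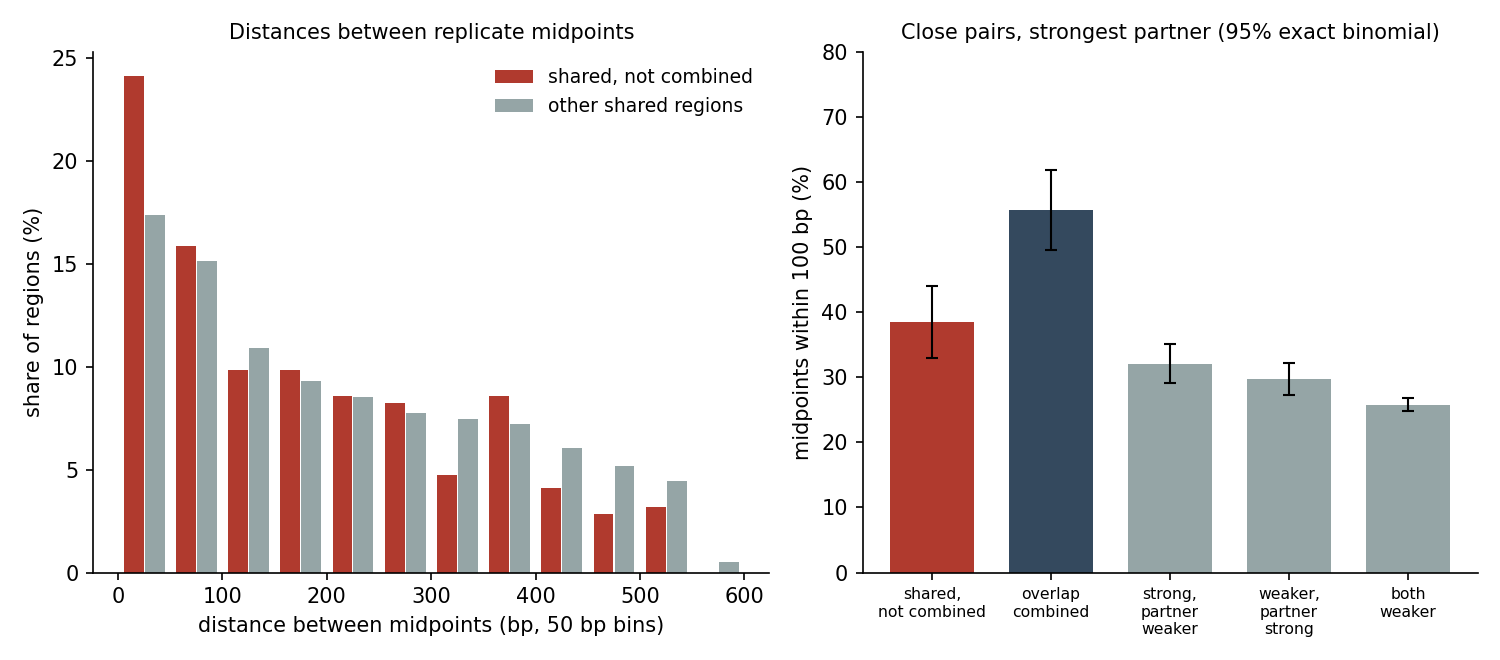
Left, the share of regions (%) in 50 bp bins of the distance between replicate 1 and nearest replicate 2 midpoints, for members and for other shared regions. Right, the share (%) with midpoints within 100 bp of the strongest counterpart, with 95% exact binomial intervals, where members stand at 38.4%, regions that overlap the combined list at 55.7% and the other classes between 25.8% and 32.1%.

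Chromosome X held more of the member loci than its length gives, and chromosome V held fewer. There were 69 of 285 loci on X (24.2%, 95% exact binomial interval 19.4 to 29.6). Its share of the nuclear length was 17.7%, so it held 1.37 times the number given by length (two-sided exact binomial test, adjusted p = 0.0306 over 6 chromosomes). On V there were 43 (15.1%, 11.1 to 19.8), 0.723 times the number that its 20.9% of the length gives (adjusted p = 0.0479 by the same exact test). Chromosome I had 56 loci (19.6%) against 15.0% of the length and did not pass (exact test, adjusted p = 0.062). Chromosomes II, III and IV, with 37, 35 and 45 loci and ratios of 0.852, 0.893 and 0.905, did not pass (exact test, adjusted p of 0.484, 0.547 and 0.547). In density this was 3.89 loci per Mb on X and 3.72 on I, against 2.06 on V.

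The calls on X and V rest on the comparison with length. Both were lost against the share of all replicate 1 loci, 19.7% on X and 19.3% on V (exact binomial test, adjusted p = 0.167 for each), against all replicate 2 loci, 19.4% and 19.3% (adjusted p = 0.108 for each by the same exact test), and with an overlap of at least 50% of both regions. At the strictest 5% of each list X held 17 of 100 loci, slightly below its length share, and V held 18.

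The chromosome shares of the members were next set against the 188 combined loci and against 950 loci of replicate 1 in the same rank range with no counterpart in replicate 2. Chromosome III held 35 of 285 member loci (12.3%) and 39 of 188 combined loci (20.7%), the widest gap of the 6 chromosomes, which did not pass after adjustment (Fisher's exact test, p = 0.0143, adjusted p = 0.086). Chromosome V held 15.1% of member loci and 9.04% of combined loci (exact test, adjusted p = 0.198), and X held 24.2% and 26.6% (exact test, adjusted p = 0.883). Against the 950 loci without a counterpart no chromosome passed, with differences between -4.35 percentage points on III and 4.07 on I and adjusted p of 0.273 to 0.926 (Fisher's exact test). At this number of loci the interval of a single share spans about 10 percentage points, so differences of a few points were not detectable.

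With replicate 2 regions as members, chromosome IV stood apart. It held 45 of 287 member loci (15.7%) but 363 of 1437 loci that were strong in replicate 2 and had no counterpart in replicate 1 (25.3%), a difference of -9.58 percentage points (Fisher's exact test, adjusted p = 0.00207). Over all replicate 2 loci, chromosome IV held 20.2%, which lies between these shares and above its 17.5% of the nuclear length. In replicate 1 the shares of member loci and of loci without a counterpart were 15.8% and 15.5% (exact test, adjusted p = 0.926). Chromosome IV thus held a larger share of the strong regions listed by replicate 2 alone than of the members, and the cause was not tested.

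**Figure D3:**
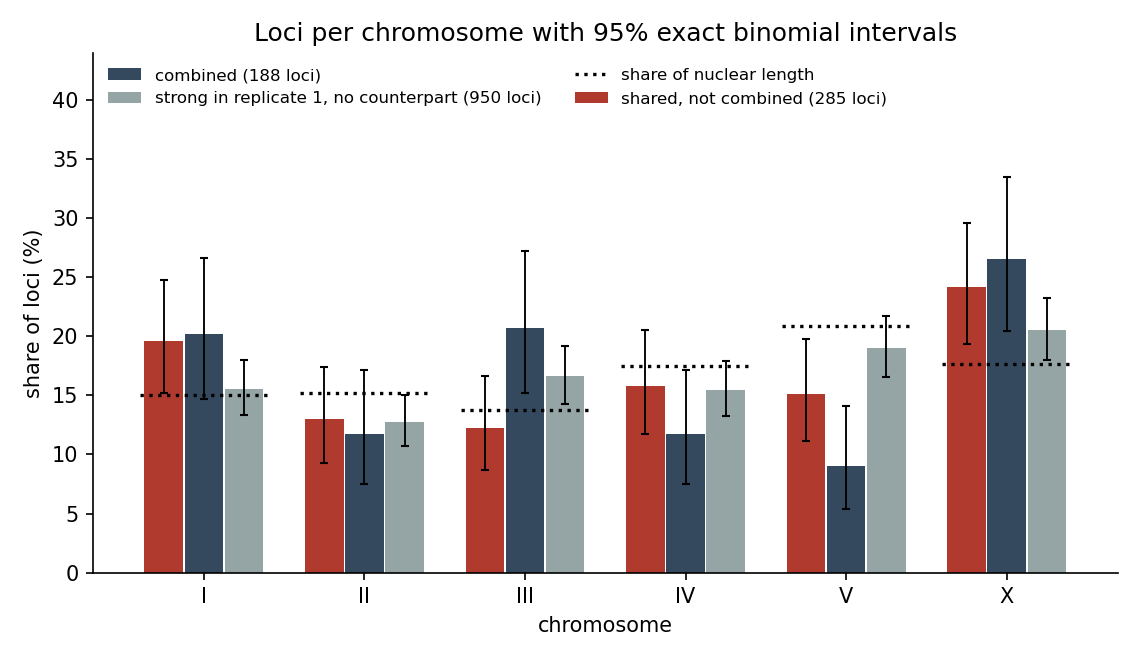
Share of loci (%) on each nuclear chromosome for member loci, combined loci and strong replicate 1 loci with no counterpart, with 95% exact binomial intervals, and the share of nuclear length as dotted lines. Member loci stand at 24.2% on X and 15.1% on V, and at 12.3% on III, where combined loci stand at 20.7%.

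Within the autosomes the member loci lay more often in the central part. Of 216 autosomal loci, 128 were centred in the middle 50% of their chromosome (59.3%, 95% exact binomial interval 52.4 to 65.9; two-sided exact binomial test against 50%, p = 0.00782). The combined loci had 79 of 138 there (57.2%), and strong replicate 1 loci without a counterpart had 488 of 755 (64.6%), which did not differ from members by Fisher's exact test (p = 0.15, chosen after the data were seen). Against the 52.6% of all autosomal replicate 1 loci the members' share missed the threshold (exact binomial test, p = 0.0562), as it did at the strictest 5% of each list (57.8%, p = 0.187 by the same test against 50%). It passed against the 48.7% of all autosomal replicate 2 loci (exact binomial test, p = 0.00213), so the call depends on the reference list.

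Counts per chromosome were small, the intervals of the central shares overlapped, and differences between chromosomes were not tested. On V, 31 of 43 loci (72.1%) were central and 12 lay in the outer parts. On I and II the central shares were 62.5% (35 of 56) and 62.2% (23 of 37). On III and IV they were 48.6% (17 of 35) and 48.9% (22 of 45). On X, 43 of 69 member loci (62.3%) but 21 of 50 combined loci (42.0%) were central, a difference chosen after the data were seen that did not pass after adjustment over 6 chromosomes (Fisher's exact test, p = 0.0402, adjusted p = 0.241). The other 5 chromosomes gave adjusted p of 0.578 to 0.608 by the same exact test.

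**Figure D4:**
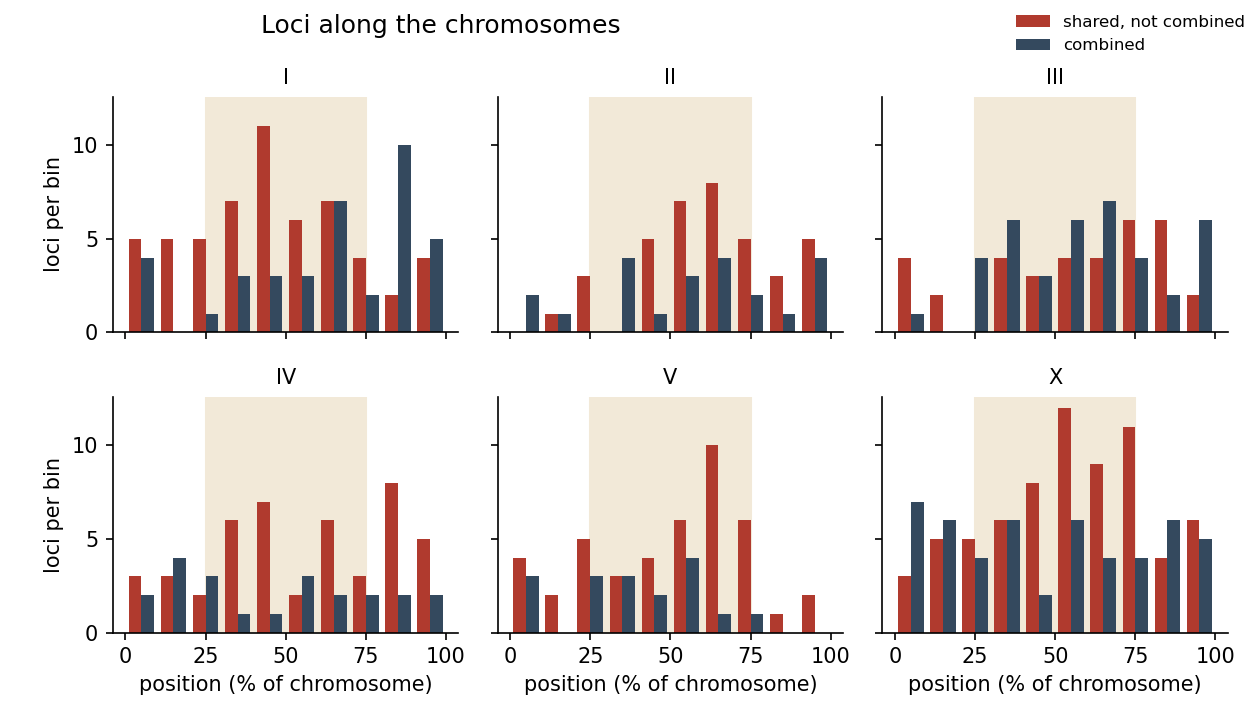
Number of loci in each 10% of a chromosome (y axis) by position in % of chromosome length (x axis), for member loci and combined loci, with the middle 50% shaded. On X the 4 bins between 40% and 80% of the length hold 8 to 12 member loci each, and on II the 4 bins below 40% hold 0 to 3.

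Member loci were found nearly throughout the nuclear genome, with the highest counts in a few windows. They covered 179 kb, or 0.179% of the nuclear length. In windows of 1 Mb, 95 of 103 held at least 1 locus, with a mean of 2.77. The 8 empty windows were the first 2 of II and those from 5 Mb on II, 3 Mb on III, 2, 9 and 18 Mb on V and 15 Mb on I, the last being a partial window. Another 8 windows held 6 or more loci, 57 in all, beside 16 combined loci. The window with most, 9 loci, was on X from 9 to 10 Mb and held 4 combined loci. The windows on X from 12 to 13 Mb and on I from 6 to 7 Mb held 8 member loci and 1 combined locus each. On I from 9 to 10 Mb there were 7 member loci and 6 combined loci. The remaining ones were on II from 9 to 10 Mb (7), on X from 11 to 12 Mb (6) and on V from 13 to 14 and from 14 to 15 Mb (6 each).

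Members and combined loci were not always dense in the same windows. The II window from 9 to 10 Mb held no combined locus. Its 7 member loci started at 9060102, 9138284, 9273422, 9590930, 9602078, 9603327 and 9781956, and the fourth, with 1051 bp, was the widest member locus. In contrast, I from 13 to 14 Mb held 2 member loci and 10 combined loci, and III from 8 to 9 Mb held 2 and 7. These windows were picked for their counts, which carry no test.

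At a finer scale, 30 of the 285 loci consisted of 2 overlapping entries and none of 3 or more. Of these 30, 9 were on X, 7 on I, 6 on IV, 4 on III, 3 on II and 1 on V. The nearest other member locus was a median of 107 kb away, and 12 loci had one within 5 kb. These formed 6 pairs, on I at 1269481 and 1274092 and at 9379048 and 9381023, on II at 9602078 and 9603327, on V at 726605 and 727741 and at 14685468 and 14688279, and on X at 15603892 and 15607288. In the pairs on I at 9381023, on II at 9603327 and on V at 727741, the named locus was among the 25 strongest, while its neighbour ranked 1568, 1783 and 821 in replicate 1.

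The distance to the nearest combined locus depends on the density of the combined list, which gave only 188 loci in the nuclear genome. No such distance was computed for other regions, so the values are not shown to be particular to the members. The median gap was 174 kb, and 58 of 285 member loci had a combined locus within 50 kb, 17 within 10 kb, 11 within 5 kb and 1 within 1 kb. That closest locus lay on I from 881183 to 881782, with ranks of 602 in replicate 1 and 896 in replicate 2, and was 615 bp from a combined region starting at 882398. The other 10 within 5 kb started on I at 1446817, 5377733, 7472287 and 12968491, on II at 11756786, on III at 8797000 and 9053334, on V at 6227331 and on X at 4145155 and 9467392. Of these 11 loci, 3 were among the 25 strongest by mean rank.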

How the data were processed

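The authors deposited 3 lists of regions, and per the file headers positions are on WS220. Per the source column in the deposited files, regions were called with SPP and passed through IDR. For the aligner, versions, thresholds and any use of input reads: not given in the sources used here. The deposited score is of unstated scale and was used here only to rank regions within a list, with ties broken by the number in the region name. The lists hold no read counts, so depth is unknown. Widths are fixed for nearly all regions, which limits the distances between overlapping midpoints.

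Overlap was counted at 1 bp or more, and members that overlap each other were merged. Chromosome lengths were the largest region ends in the lists. Mitochondrial regions were left out. Shares were tested with two-sided exact binomial and Fisher's exact tests with Benjamini-Hochberg adjustment over chromosomes, and intervals are 95% Clopper-Pearson. The pairing of regions and the adjusted binomial test were checked on simulated lists, and the counts of members and merged loci against bedtools 2.31.1. Fisher's exact tests were not checked in this way. Software was matplotlib 3.10.9, scipy 1.17.1, pandas 2.3.3 and numpy 2.4.6 under Python 3.11.15.

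Members, tests and named loci were chosen with earlier results of these data known. Loci named are the 25 with the best mean rank, the widest, those nearest the limits and the windows with 6 or more loci. Other loci and windows were named after their values were seen. Alternatives changed the overlap, the limits, the merging, the replicate used and the reference share.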

Additional observations from a re-analysis of the deposited data

Results flagged for a closer look

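Mitochondrial regions, which the rule leaves out, would otherwise have entered the set in number. Of the 19 mitochondrial regions in the strongest 10% of replicate 1, 19 overlapped 1 of the 22 mitochondrial regions in the strongest 10% of replicate 2. They are given here because the comparisons leave them out. No background was computed for this overlap, which depends on how much of the mitochondrial genome the regions cover. The 19 regions had 5 distinct positions and merged to 3 loci, so they are not 19 independent counts, and the combined list held no mitochondrial region. Region lists of the input samples were not analysed here, so no control count stands beside them.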

How the results depend on the processing

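Which regions are members depends on the limits: midpoints within 100 bp left 126 loci, the strictest 5% of each list left 100, and lists built without 1 replicate held 2116 to 2651. Counting every entry brought a call on I (20.0%, exact binomial test, adjusted p = 0.0352). With midpoints within 100 bp the calls on X (23.8%) and V (15.9%) were lost and IV (18.3%) lay above its length share. With overlap of 50% of both regions, X (23.9%) and V (16.9%) lost their calls. At the strictest 5%, X (17.0%) and II (17.0%) changed side of their length share, V (18.0%) and the middle share (57.8%) lost their calls, and the differences on I against combined loci (0.787 points) and on X against unshared loci (-2.32 points) changed sign. So did, against unshared loci, II with every entry counted (-0.47 points) and III (1.62) and IV (-9.58) with replicate 2 regions as members. Changing the reference to all loci of replicates 1 and 2 left the member shares as they were, but X and V lost their calls. The reference shares were then 19.7% and 19.4% on X and 19.3% and 19.3% on V, and II lay above the 12.9% of replicate 2. Against the 52.6% of all replicate 1 loci the members' middle share of 59.3% lost its call, and it lay below the 64.6% of unshared loci. Without 1 replicate II (11.0% to 12.3%) was called low, III was 11.8% to 14.7%, called low without replicate 1, and IV was 17.9% to 23.8%, called high without replicate 1. Close midpoints lost their call at the strictest 5% (38.7%) and lay below the 55.7% of regions that overlap the combined list. What caused these changes was not tested. Ties at the limits and counterparts in the combined list changed nothing, since neither occurred. Of 139 values of tested results under alternatives, 109 kept direction and call. That count includes the alternatives on ties and on combined counterparts, whose outcome was fixed. It also includes results that passed neither in the main setting nor in the alternative, so it is no measure of how firm the calls on X and V are. No paired analysis was possible because every test counts regions of the ChIP lists, and none compares ChIP with input samples.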
